A study of Saccharomyces cerevisiae with 328 samples.

Results

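The genes described here encode ribosome assembly factors of budding yeast, Saccharomyces cerevisiae. They were chosen by name: UTP, NOP, NOC, RRP, RPF, NSA, IMP or ENP followed by a digit, with MPP10, DIP2, PWP2, SOF1, KRR1, NUG1, RRS1 and RLP7. The names gave 74 genes, of which 73 were measured in 80% of strains or more, among 4499 genes that passed the same condition and 4922 with any value. The gene left out was IMP3, a partner of MPP10, with a value in 73.8% of strains; the member nearest to the limit that passed was IMP2, with a value in 96.6%.

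Ribosomes are built in the nucleolus from a long RNA precursor that RNA polymerase I transcribes. On the nascent precursor the UTP complexes and the U3 snoRNP (a small nucleolar RNA with its proteins) form the small subunit processome, in which the precursor folds and is cleaved. Other factors carry the large subunit precursor to the cytoplasm, and the RNA exosome trims and degrades the cut ends. In yeast these genes are known as a regulon that rises and falls with nutrients and stress.

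The study profiled polyA RNA of 328 strains, each lacking 1 gene and each with 1 library, as ratios to the wild type strain. Cells grown overnight were diluted and sampled in exponential phase after a few divisions. Sorted by what the missing gene does, the strains comprised 18 without a small subunit ribosomal protein and 14 without one of the large subunit. Biogenesis factors were missing in 7 (NOP12, TSR2, SSF1, LRP1, RRP6, JJJ1 or TMA23), and 6 lacked a factor of the Elongator or URM1 pathways, 6 a Mediator subunit and 8 a recombination repair factor. Vacuolar or endosomal sorting factors were missing in 13, chromatin factors in 17 and mitochondrial functions in 15. The remaining strains, called other deletions, were the reference. They hold the strain lacking ASC1, whose protein also belongs to the small subunit. The labels name the deleted open reading frame and no other allele, and strains of a class lack different genes, so the spread within a class holds differences between deletions and between libraries together. Every ratio shares the wild type reference, so a value that a gene has in all strains cannot be told apart from one particular to the wild type library.

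Several libraries stood apart. The 2142 genes with a value in every strain were used to sort the strains into 4 groups of 80, 73, 96 and 79 strains. These are called library batches here, but the labels name no such batch and their origin is not known. They held 30.9% of the variance of genes that include those used to form them. The number 4 was a setting, and 5 groups scored better on a criterion of fit. In 17 strains 1 chromosome was shifted by more than 0.4 as a whole. Of 256 strains whose deleted gene could be examined, 58.2% had it lowered, 49 had no value for it and 58 did not have it lowered. In 8 libraries the values scattered around the gene means with an SD of 0.71 to 1.07, against a median of 0.44 over strains. The values used here are log2 ratios, with the base taken from the size of the chromosome shifts, and the depth per library is unknown.

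The promoters are shown first, since the members shared letters there that other genes rarely had. A pair of motifs is known before yeast assembly genes: PAC, here the letters CGATGAG, and RRPE, here AAAATTTT. Both strands were searched in the 300 bases before the start codon in the RefSeq R64 genome; RRPE is its own reverse complement, and the letters of both motifs cannot overlap. Of the 73 members, 72 were matched to the annotation, all but IMP2'. The 3 members with both motifs that shared most with the others, as described further on, and the lowest 2 that were matched are printed, with the motif letters in capitals, written from 5′ to 3′ on the strand of the gene. The windows are chrVII:695117-695416 (plus strand) for NOP7, chrIV:190587-190886 (minus) for NOP14, chrIV:1267171-1267470 (plus) for UTP5, chrXIII:340842-341141 (plus) for IMP2 and chrXIII:562529-562828 (minus) for IMP1.
NOP7: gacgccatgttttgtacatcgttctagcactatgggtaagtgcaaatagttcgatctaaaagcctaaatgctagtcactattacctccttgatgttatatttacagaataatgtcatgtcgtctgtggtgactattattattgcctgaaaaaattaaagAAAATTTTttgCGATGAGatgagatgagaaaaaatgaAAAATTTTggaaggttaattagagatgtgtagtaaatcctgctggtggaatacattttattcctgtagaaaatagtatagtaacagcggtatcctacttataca
NOP14: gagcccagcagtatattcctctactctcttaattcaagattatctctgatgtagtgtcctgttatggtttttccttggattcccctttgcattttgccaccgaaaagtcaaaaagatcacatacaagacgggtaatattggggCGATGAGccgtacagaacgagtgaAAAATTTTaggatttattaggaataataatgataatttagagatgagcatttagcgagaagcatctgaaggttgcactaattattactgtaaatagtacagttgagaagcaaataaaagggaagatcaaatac
UTP5: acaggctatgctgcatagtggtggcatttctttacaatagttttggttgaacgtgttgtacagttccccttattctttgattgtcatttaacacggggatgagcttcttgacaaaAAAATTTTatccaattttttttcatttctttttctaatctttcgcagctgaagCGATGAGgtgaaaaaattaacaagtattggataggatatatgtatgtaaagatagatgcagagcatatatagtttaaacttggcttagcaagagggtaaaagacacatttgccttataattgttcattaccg
IMP2: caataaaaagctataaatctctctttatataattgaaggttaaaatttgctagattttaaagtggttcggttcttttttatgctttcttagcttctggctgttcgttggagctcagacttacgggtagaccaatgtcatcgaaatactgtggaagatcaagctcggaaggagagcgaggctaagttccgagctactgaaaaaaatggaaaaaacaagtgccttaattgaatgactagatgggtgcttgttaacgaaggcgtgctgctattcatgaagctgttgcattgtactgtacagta
IMP1: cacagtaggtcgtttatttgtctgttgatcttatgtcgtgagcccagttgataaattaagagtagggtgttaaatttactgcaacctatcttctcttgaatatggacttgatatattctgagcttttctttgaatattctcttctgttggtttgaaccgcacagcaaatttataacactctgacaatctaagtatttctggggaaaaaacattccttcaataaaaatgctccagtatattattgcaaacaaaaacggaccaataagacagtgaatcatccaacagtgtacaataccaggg

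In NOP7 the PAC letters stood between a pair of RRPE matches, the nearer of which ended 96 bases before the start codon. In NOP14 PAC stood upstream of RRPE, and in UTP5 downstream of it. The windows of IMP2 and IMP1, which encode subunits of the mitochondrial inner membrane peptidase, held neither.

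PAC was found before 44 of the 72 members (61.1%) and before 6.93% of all 6001 promoters. RRPE was found before 48 members (66.7%) and 9.42% of all promoters. Both stood before 32 members (44.4%) and 2.65% of all promoters, and neither before 12 members (16.7%) and 86.3% of all. Counted from the end of the motif nearer to the gene, PAC lay a median of 106.5 bases before the start codon, with 43 of 44 between 50 and 200 bases, and RRPE was in that range in 46 of 48. The counts for RNA exosome subunits were PAC before 2 of 7, RRPE before 1 of 7 and both before 0 of 7. A match describes letters only.

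**Figure D1:**
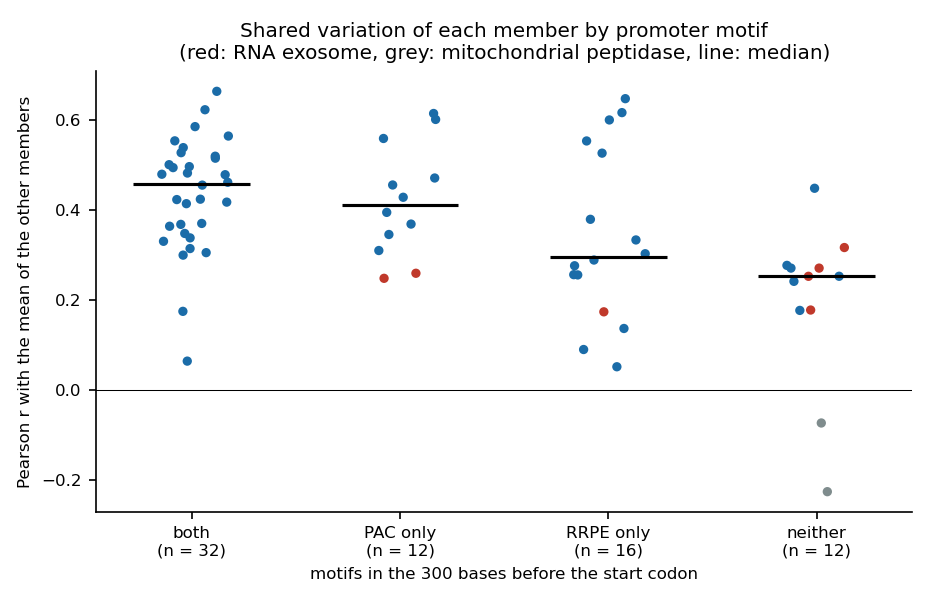
Pearson r of each of 72 members with the mean of the other members over strains, batch means subtracted (vertical axis), by the motifs in its promoter (horizontal axis); points are genes, lines are medians, red is the RNA exosome and grey the mitochondrial peptidase. The medians are 0.46 with both motifs and 0.25 with neither.

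Against the wild type, most members were low across the deletion strains. The mean over strains lay below 0 for 65 of 73 members and for 62.4% of all genes tested, and the median of these means was -0.36 for members and -0.13 for all genes. The direction has no test of its own, because of the shared reference. The lowest means belonged to large subunit factors. NOP2, an RNA methyltransferase of the large subunit precursor, had a mean of -1.34 ± 0.39 (SD, n = 326) and was below wild type in 100% of these strains. RRP14 had -1.30 ± 0.42 (SD, n = 328) and RRS1, which helps to bring the 5S RNA into the large subunit, -1.26 ± 0.44 (SD, n = 328). At the other end stood UTP6 with 1.24 ± 1.32 (SD, n = 328), followed by the exosome subunit RRP40 with 0.08 ± 0.38 and the small subunit factor UTP11 with 0.07 ± 0.47.

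By role, the ranges overlapped widely. The 6 UTP-A members, the first complex to bind the precursor, had means from -0.57 (UTP15) to 0.04 (UTP9). In UTP-B, the second, UTP21 was at -0.79 and PWP2 at -0.76, while DIP2 was at -0.11. The U3 snoRNP proteins ran from -0.65 for NOP58 to -0.11 for RRP9. The other small subunit factors ran from -0.95 for ENP1, which accompanies the precursor to the cytoplasm, to UTP11. Of the Mpp10 complex, MPP10 was at -0.57 and IMP4 at 0.03. The 23 large subunit factors had a median of -0.37 and a highest mean of 0.07 for NOP15, and the 7 exosome subunits had a median of -0.28, with RRP6, the nuclear exonuclease, at -0.64.

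**Figure D2:**
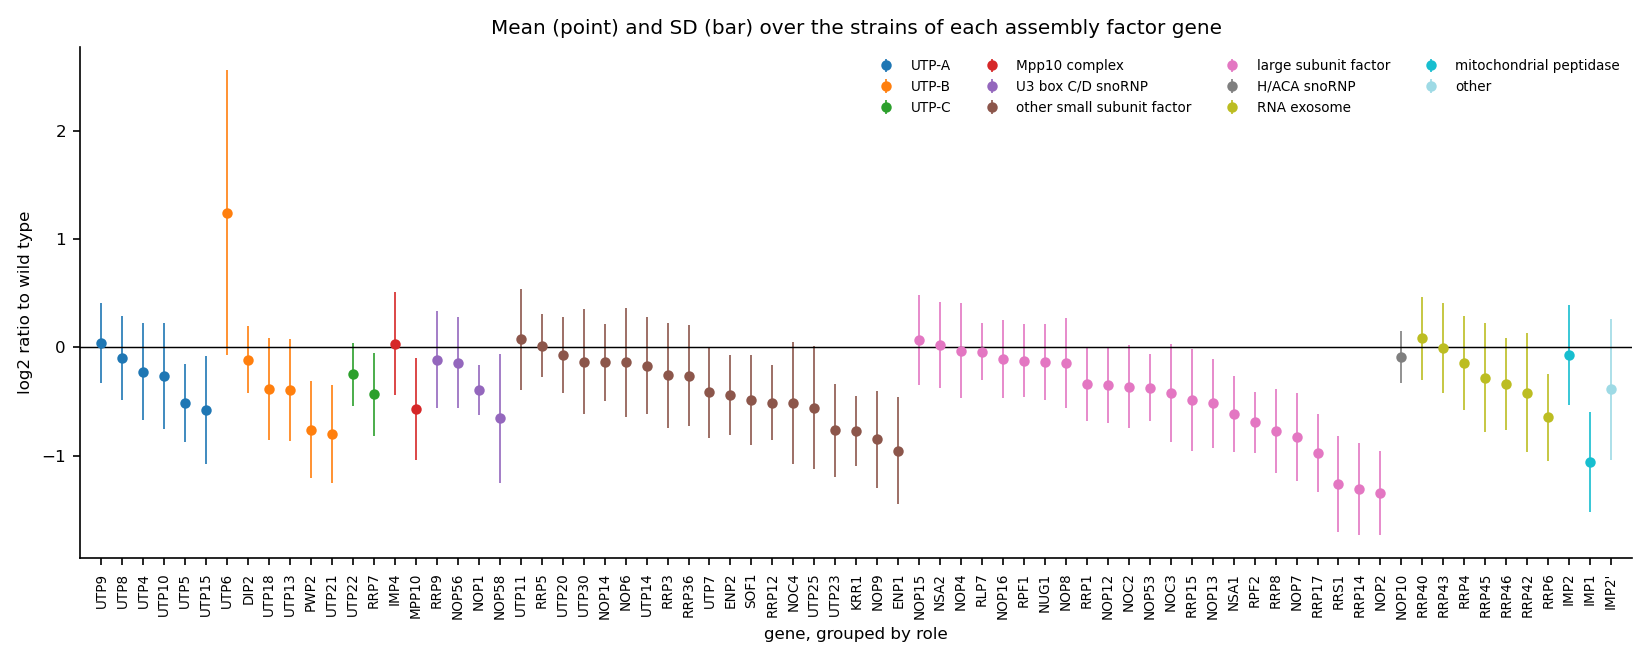
Mean (point) and SD over the strains (bar) of the log2 ratio to wild type (vertical axis) of the 73 members, grouped and coloured by role (horizontal axis). UTP6 stands at 1.24 with the longest bar, and NOP2, at -1.34, is the lowest.

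The members also differed in how much they varied from strain to strain. The median SD was 0.42 for members and 0.47 for all genes. NOP1, the methyltransferase of the box C/D particles, had the smallest, 0.23, followed by NOP10, a protein of the pseudouridine-guiding particles, with 0.24 and RLP7, a relative of a large subunit protein, with 0.26. The largest after UTP6 were those of IMP2' with 0.65 and NOP58 with 0.60.

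UTP6 differed between the library batches. It has a value in every strain and is among the genes that the batches were formed from, and only 5 genes had a larger SD. Its separation by batch is therefore partly set by how the batches were made. Its median was -0.93 in batch 1, where the highest strain reached 0.19, and 1.63, 2.54 and 1.65 in batches 2 to 4, where the lowest strain was at 0.73. The ranges of batch 1 and of the others did not overlap. Its batch means spanned 3.18, against a median span of 0.57 over members. With batch means subtracted its closest genes were YKR040C (r = 0.83 over strains), ADA2 (0.78) and BRN1 (0.77), and ADA2 is its neighbour on chromosome IV, transcribed towards it. Other genes nearby did not follow it as closely, with RPS18A at -0.02 and RPS17B at 0.15. Whether the counting used strand is not given in the sources used here, and the part that reads of a neighbour or the batch have in these values was not tested. Without UTP6 the mean over members correlated at 0.996 with the mean over all of them.

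The mean over members in a strain, called the module mean here, was -0.37 ± 0.20 (SD over 328 strains), with a lowest value of -0.98, a median of -0.36 and a highest of 0.27. It was below 0 in 320 strains, and in 317 after the median of all genes was subtracted from each strain. It correlated at 0.69 with that median. The batches differed: the module mean was -0.48 in batch 1, -0.26 in batch 2, -0.53 in batch 3 and -0.16 in batch 4, and the SD within batches was 0.13.

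The members varied together. Each was correlated with the mean of the others over up to 328 strains, which share the wild type reference and their batch, so batch means were subtracted first. The correlation was above 0 for 70 of 73 members with a median of 0.37, and above 0.5 for 17. For the 4426 other genes the median was 0.04, and 0.904% lay above 0.5. The highest belonged to NOP7 (0.66), a large subunit factor, NOP56 (0.65), a core protein of the U3 and other box C/D particles, NOP14 (0.62), of the small subunit processome, and NOP15 (0.62), a large subunit factor. The 3 members below 0 were IMP2 (-0.23), IMP2' (-0.11) and IMP1 (-0.07). They fall under the name rule but are not assembly factors: IMP2' is known as a transcriptional activator. Next above them came NOP1 (0.05), ENP1 (0.06) and RRP7 (0.09), a UTP-C subunit, all of which are assembly factors.

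Factors of both subunits moved together across strains. The mean of the 39 small subunit factors correlated with that of the 23 large subunit factors at 0.83, and at 0.81, 0.64, 0.86 and 0.91 within batches 1 to 4. With the 7 exosome subunits the small subunit factors reached 0.57 and the large subunit factors 0.43. The 3 genes that are not assembly factors were at -0.22 and -0.23. Members with both promoter motifs had a median correlation with the others of 0.46 (32 genes), those with PAC only 0.41 (12), with RRPE only 0.30 (16) and with neither 0.25 (12). The ranges overlapped, since ENP1 has both motifs and 0.06.

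Genes outside the members were also correlated with the module mean. The highest 5 were CGR1 (0.70), MAK21 (0.66), LTV1 (0.64) and BMS1 (0.64), all assembly factors under other names, and RPA34 (0.62), a subunit of RNA polymerase I. A list of 86 other assembly factors, 1.94% of the genes outside the members, held 39 of the 100 highest; ribosomal protein genes made up 6, and 50 were in none of the lists. PAC stood before 44.4% and RRPE before 58.6% of the 99 of these genes that were matched, and before 1.02% and 6.12% of 98 matched genes with the lowest correlation. The lowest were CWP2 (-0.59), a cell wall mannoprotein, BCY1 (-0.58), the inhibitory subunit of protein kinase A, the glycolytic enzymes ENO1 (-0.57) and PGK1 (-0.57), and TSL1 (-0.56), of trehalose synthesis. Among the 100 lowest were 16 genes of the stress-induced list.

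The means of the lists were compared in the same way. With batch means subtracted, the module mean correlated with the mean of the other assembly factors at 0.94 (Spearman 0.92; 0.93, 0.85, 0.96 and 0.95 within batches; 0.97 pooled). With the 10 genes of RNA polymerase I and its initiation factors it was 0.61 (0.77 pooled). Ribosomal protein genes followed the module less: 0.19 for the 82 of the large subunit and 0.21 for the 56 of the small subunit, and -0.05 and -0.17 pooled. The 35 translation factors were at 0.37 (0.06 pooled). The 26 stress-induced genes that were tested went the other way, at -0.50 (-0.26 pooled), and between -0.60 and -0.42 within batches. For 54 mitochondrial ribosomal proteins the value was 0.01, with 0.53 pooled and -0.34, -0.36, 0.54 and -0.14 within batches, so that no single direction held. The 5 regulators that were tested had r from -0.20 (SCH9, the nutrient-signalling kinase) to 0.26 (TOD6, a repressor that binds PAC). DOT6, its paralog, was at -0.01, STB3, which binds RRPE, at -0.07 and IFH1 at 0.05. Pooled, these values were -0.55 for SCH9, 0.27 for TOD6, 0.51 for DOT6, 0.09 for STB3 and -0.42 for IFH1.

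**Figure D3:**
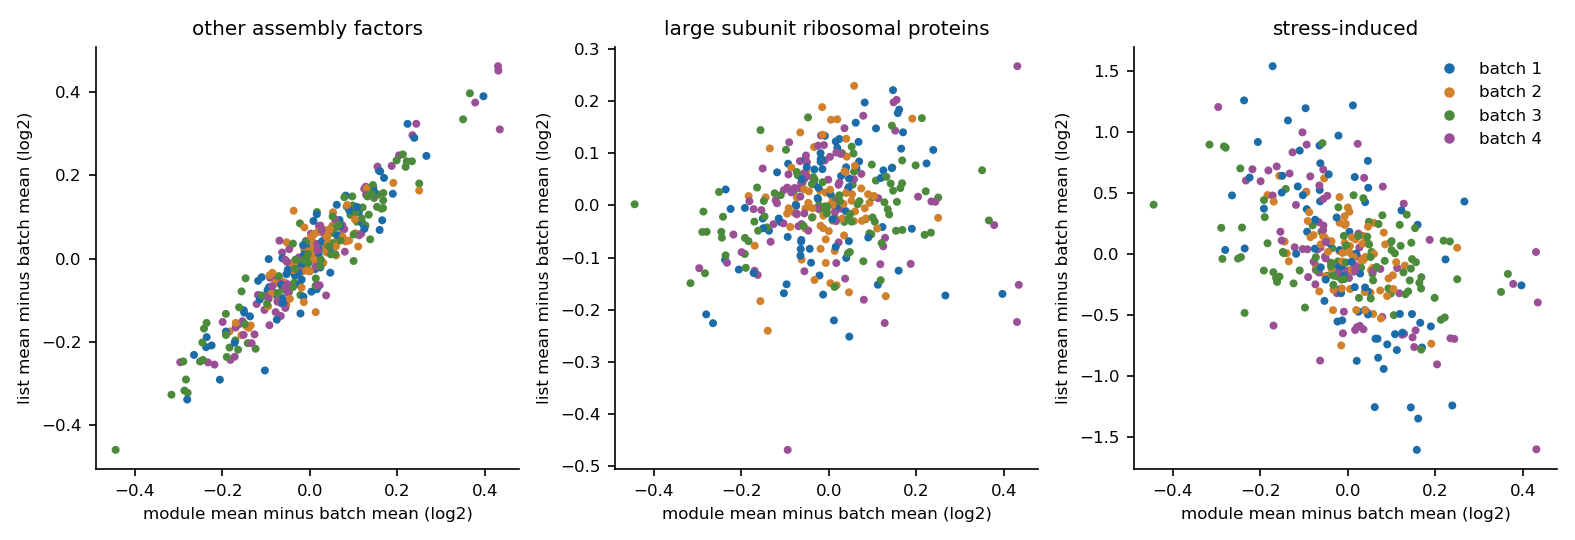
Mean of 86 other assembly factors, 82 large subunit ribosomal protein genes and 26 stress-induced genes (vertical axes, log2) against the module mean (horizontal axes, log2), batch means subtracted; each point is a strain, coloured by batch. The correlations are 0.94, 0.19 and -0.50.

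The classes of deletion were compared for every gene in 1 limma fit with Benjamini-Hochberg adjustment over 4499 genes, a call being an adjusted p under 0.05. Since no strain is repeated, these p-values weigh differences against the spread among deletions. In strains lacking a small subunit protein 1 of 73 members was higher, beside 0.467% of all genes, and 0 were lower, beside 1.73%; 3 further members had an unadjusted p under 0.05. The gene was NOP53, a late large subunit factor that brings the exosome to the precursor. It ran from -0.45 over a median of -0.09 to 0.36 in the 18 strains, and from -1.34 over -0.42 to 0.54 in the other deletions. The groups overlapped, but 16 of 18 strains lay above the median of the other deletions. The means were -0.11 ± 0.24 (SD, n = 18) and -0.41 ± 0.30 (SD) in the other deletions, a difference of 0.30 ± 0.08 (SE) with an adjusted p of 0.0145 in limma. Within batches the difference was 0.31, 0.25, 0.35 and 0.14, with 2, 3, 9 and 4 strains of the class. In a trial of the fit, 18 random other deletions were taken as a class and shifts were added to some genes. There 31 genes without an added shift were called, 14.2% of all calls, so a single call can be false.

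NOP53 reached 0.36 in the strain lacking RPS1A and 0.21 without RPS21A, and -0.45 without RPS18B. In strains lacking a large subunit protein it ran from -0.47 over -0.30 to 0.07, a difference from the other deletions of 0.17 with an adjusted p of 0.506 in limma. The small subunit class lay 0.12 ± 0.11 (SE) above the large subunit class, with an adjusted p of 0.767 in limma, so a difference between both classes is not shown.

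**Figure D4:**
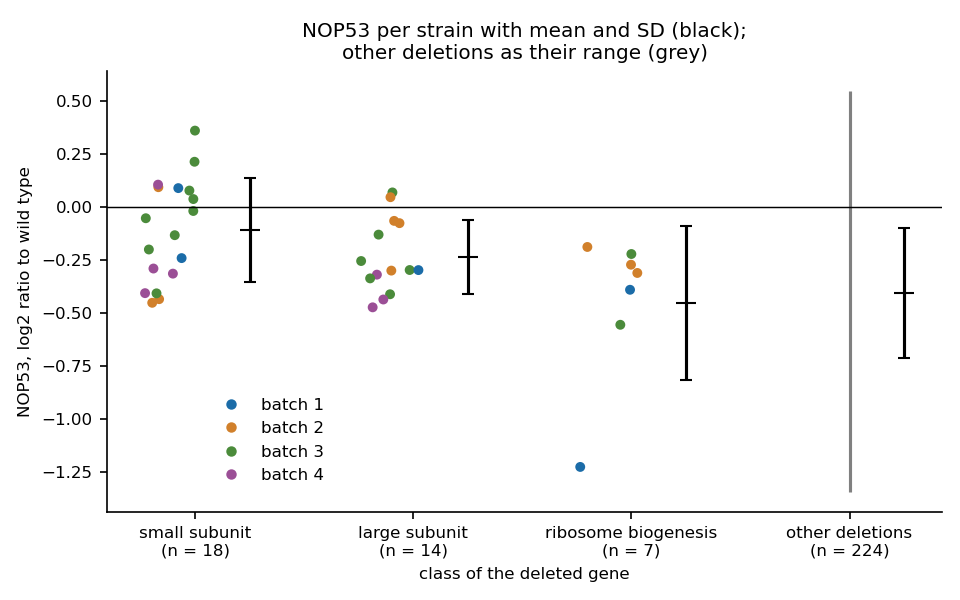
NOP53 (vertical axis, log2 ratio to wild type) in the strains lacking a small subunit protein, a large subunit protein or a biogenesis factor and in the other deletions (horizontal axis); points are strains coloured by batch, black marks are means with SD, and the grey line is the range of the other deletions. The small subunit class has a mean of -0.11 against -0.41 in the other deletions.

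The other members did not pass this test in the small subunit class, where 45 of 73 had a positive difference and the median was 0.04, against -0.07 over all genes. That median rested on the scaling and on 1 library: it was 0.11 with each strain centred (65 of 73 positive), -0.0041 without the RPS27B strain and -0.0052 without strains with a shifted chromosome (33 of 73 positive). With the batch as a term 2 members were higher beside 0.978% of all genes: NOP53, and NOC3, a large subunit factor, with a difference of 0.30 ± 0.09 (SE) and an adjusted p of 0.0426 in limma. When each strain was also centred on its median, 6 were higher beside 1.91% of all genes, the further 4 being UTP4, NOP10, NOC2 and NOP15. With 5 batches in place of 4, chosen after seeing the data, NOP53, NOC3 and NOP15 were higher beside 1.02% of all genes. Of other lists in the class, 0 of 86 other assembly factors were called, 7 of 82 large subunit ribosomal protein genes were higher, with RPL25 at 0.31 and RPL43B at 0.25, and of 56 small subunit ones 3 were higher and 3 lower. With the batch as a term these counts were 24 higher for the large subunit and 9 higher and 3 lower for the small subunit. In the fit without it 2 of 26 stress-induced genes, the chaperones HSP78 (-0.71) and HSP104 (-0.51), were lower. RRN3, which starts transcription by RNA polymerase I, was higher by 0.39 with an adjusted p of 0.0345 in limma.

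No member passed the test in the other comparisons. With limma 0 of 73 were called in the large subunit class (0.222% of all genes called), and 8 had an unadjusted p under 0.05. The same count of 0 was found for biogenesis factors (0.0445% of genes; 1 member under 0.05 unadjusted), Elongator or URM1 (0% and 1), Mediator (0.0667% and 6), recombination repair (0.0222% and 9), sorting (0.0889% and 5), chromatin (0% and 12) and mitochondrial functions (0% and 1). These percentages are shares of all genes called at the adjusted p. How many of all genes were under 0.05 unadjusted was not counted. The unadjusted member counts, here and for the small subunit class, therefore have no background and show no excess among members. Between the small and large subunit classes 0 members were called beside 0.244% of all genes, and 3 were under 0.05 unadjusted. With the batch as a term and centring 1 was higher in the small subunit class, RRP5 of both subunits' early precursors, by 0.34 ± 0.09 (SE) with an adjusted p of 0.0285 in limma, beside 0.756% of all genes. The smallest unadjusted p among these was that of KRR1, a small subunit factor, which differed by -0.31 ± 0.08 (SE) in the chromatin class with an adjusted p of 0.336 in limma. KRR1 was at -3.32 in the ASF1 strain of that class, the library with the largest spread. Without the 8 libraries of largest spread, a setting chosen after seeing the data, its difference was -0.18 ± 0.08 (SE), and 6 members of the class in place of 12 had an unadjusted p under 0.05. In that class 15 of 73 members had a positive difference and the median was -0.09, against -0.03 over all genes; with the batch as a term these were 25 members and -0.04, against -0.01 over all genes. With shifts added to random strains of the other deletions, the fit found 89% of 0.5 with 18 strains and 38% with 7. Shifts of this size can thus be missed in the small classes.

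The module mean itself was compared between classes without a test. It was -0.34 ± 0.24 (SD, n = 18) in the small subunit class, -0.32 ± 0.18 (n = 14) in the large subunit class and -0.32 ± 0.13 (n = 7) without a biogenesis factor, against -0.38 ± 0.20 in the other deletions. The farthest classes were Mediator at -0.26 ± 0.15 (n = 6) and chromatin at -0.46 ± 0.17 (n = 17). Each of these differences was smaller than the SD of the class. That SD is the spread of single strains and not the uncertainty of a class mean, so the classes are not shown to be alike. With batch means subtracted the order changed: Mediator, with 4 of 6 strains in batch 4, went from 0.11 to 0.02 and chromatin from -0.08 to -0.04, and the biogenesis class was farthest at 0.083 (SD 0.082, n = 7). After centring of the strains the small subunit class was farthest, at 0.10 (SD 0.17, n = 18).

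**Figure D5:**
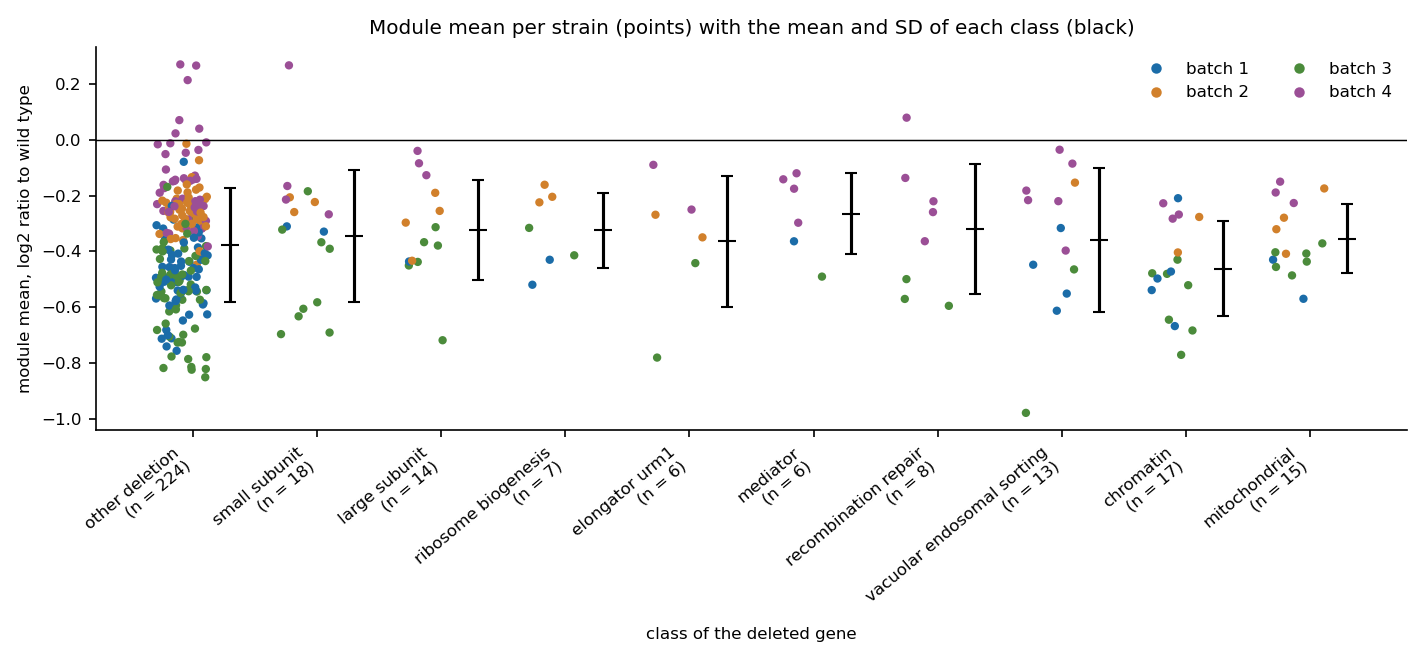
Module mean of each strain (vertical axis, log2 ratio to wild type) by the class of the deleted gene (horizontal axis); points are strains coloured by batch, and black marks are the class mean with SD. All class means lie between -0.46 and -0.26, within the spread of the other deletions.

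The strains at both ends of the module mean are given next, each 1 library with no replicate. Single values spread more widely than class means do, so their distance is not compared with that of the classes. The highest module means, 0.27, were those of the libraries labelled BUD27, RPS27B and SAC3, followed by HMO1 with 0.21, all in batch 4, whose mean was -0.16. In the SAC3 strain, which lacks a scaffold of mRNA export, 68 of 73 members lay above their batch mean, while the median of all genes was itself 0.20 above its batch, and large subunit ribosomal protein genes were at -0.22 relative to the batch. In the HMO1 strain, which lacks a DNA-binding protein of ribosomal RNA and ribosomal protein genes, 62 members lay above and RNA polymerase I genes were 0.51 above. The RPS27B strain had 68 members above, the stress-induced genes at -1.60 relative to the batch, and chromosome XI raised. In the library labelled BUD27 that gene was not lowered. Relative to their batch, the strains lacking PHO5 (0.40, with 70 of 73 members above), BRE5 (0.37, with 71) and RPS21A (0.35, with 68) also stood high. The median of all genes was 0.12, 0.21 and 0.06 above the batch in these strains.

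The lowest module mean was -0.98 in the strain lacking VPS38, of endosomal sorting, a value of -0.44 relative to its batch, with 63 of 73 members below and the stress-induced genes 0.41 above. DRS2 (-0.85), RAD5 (-0.82), RPN4 (-0.82) and TOP3 (-0.82) followed, all in batch 3. Stress-induced genes were 0.90 above the batch in the DRS2 strain and 0.88 in the TOP3 strain, while in the RPN4 strain, which lacks the activator of proteasome genes, they were at -0.04.

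Among strains that lack an assembly factor, the library without SSF1, a large subunit factor, had the module mean 0.22 above its batch, with 58 of 73 members above. NOP12 was at 0.12, RRP6 at 0.10, JJJ1 at 0.06, TMA23 at 0.05, where TMA23 itself was not lowered, and TSR2 at 0.04. The LRP1 strain went the other way, at -0.04, so 6 of 7 lay above their batch mean. Without TOD6 the module mean was 0.084 above its batch, batch 2. The SD of that batch alone was 0.079, and the SD within all batches was 0.13. A pair of strains lack a member. NOP12 was at -1.42 in its own strain, where the batch median was -0.34, the 4th lowest of 328 values. RRP6 was at -1.12 in its own strain, where the batch median was -0.55, the 37th lowest of 326 values.

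Members also followed the level of their chromosome. In 16 strains a raised chromosome carried members, and 68 of 70 such values lay above the batch mean, against 615 of 1098 values of members on other chromosomes in these strains. A chromosome was called raised from the median of all its genes, so most members on it had to lie above, and the comparison is a description only. The medians of members on the raised chromosome were 0.48 to 1.38 above the batch. With 11 members, chromosome IV was raised in the strains lacking RPP1A (median of members 0.91) and PEP8 (0.89). All genes of the chromosome were shifted by 0.81 in both strains, relative to the gene means and the strain's median. Deletion of a gene within 2 open reading frames of a member, 13 cases, left 0 of them past 2 SDs of its values within batches.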

How the data were processed

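PolyA RNA of 328 deletion strains was sequenced, 1 library each. The deposited values are log2 ratios of each strain to the wild type, per the series design; the base is not written and log2 was assumed, since chromosomes shifted as a whole by up to 0.92, more than a doubling gives in natural (0.693) or decimal (0.301) logarithms. Bowtie is named per the submitters' processing notes; version, build, counting and depth normalization: not given in the sources used here. Thus the depth is unknown and no interval that needs it is given. The tables hold 255 and 73 strains and were matched row by row (r of gene means 0.979); empty cells stayed missing.

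Genes measured in 80% of strains or more were used. Classes were set by what the missing gene does, and limma 3.58.1 (R 4.3.3; lmFit, eBayes) was fitted once over 10 groups, with Benjamini-Hochberg adjustment at 0.05. Library batches came from a Gaussian mixture of 4 components (10 starts) on 4 principal components. These were of the 2142 genes with a value in every strain, 51 members among them. Subtracting batch means thus removes member differences between batches. The number of 4 was a setting. The Bayesian information criterion, where lower is better, was 6847 with 4 components and 6768 with 5. The fit was tried on the measured values of the other deletions. Random strains were taken as a class and shifts were added, in a single draw for each class size. With 18 strains it found 89% of shifts of 0.5 and 99% of shifts of 1, with 31 false calls (14.2% of calls). With 7 strains it found 38% and 94%, with 1 false call (0.752%). How these values vary between draws was not examined.

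Members and lists were chosen with earlier results of these data known. Genes were named by rule: called members, the highest and lowest means, SDs and correlations, examples per role, and the strains at both ends of the module mean. Outside the rule, RPS1A, RPS21A and RPS18B strains, KRR1 and the neighbours of UTP6 were named after their values were seen. Alternatives were centring, other coverage limits, batch or table terms, other references, left-out strains and other motif letters. Biopython 1.88, matplotlib 3.10.9, scipy 1.17.1, scikit-learn 1.9.0, pandas 2.3.3, numpy 2.4.6 and Python 3.11.15 were used. Lists of 6 a-cell, 7 haploid and 4 alpha-cell genes were also set beside the module mean. The alpha-cell genes were not tested for want of values. The others correlated with the module mean at 0.06 and 0.11, batch means subtracted, which does not test the mating type.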

Additional observations from a re-analysis of the deposited data

Results flagged for a closer look

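In 4 classes of 6 to 8 strains the module mean and 6 named members were examined for a strain far from the others, 28 cases in all, of which chance gives about 1 in 20, and 5 were found. RRP6 was at -2.23 in the strain lacking URM1, where the other 5 strains of the Elongator and URM1 class ran from -0.73 to 0.13. UTP6 was at 3.14 in the UBA4 strain of that class, where the others ran from 1.34 to 1.74, and at -1.11 in the SRB8 strain of the Mediator class, where the others ran from 1.36 to 2.53; the SRB8 library is the 1 Mediator strain in batch 1, whose UTP6 values are all at or below 0.19. NOP53 was at -1.23 in the LRP1 strain, which lacks a cofactor of the nuclear exosome and had chromosome IX raised, against -0.56 to -0.19 in the other 6 biogenesis strains. NOC3 was at 0.39 in the library labelled TMA23, whose deleted gene was not lowered, against -0.64 to -0.39 in the others. Each is 1 library, and the causes were not tested.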

How the results depend on the processing

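No paired analysis was possible because each strain lacks a different gene and the labels give no replicate numbers. Members called in the small subunit class numbered 1 in the main fit, 2 with the batch as a term, 3 with 5 batches and 6 with the batch and centring; without each strain of the class in turn the count was 1 to 1. NOP53 was called in all 32 alternatives, with a difference of 0.27 to 0.37 and an adjusted p of 0.00374 to 0.0487 in limma. Between both ribosomal classes 1 member, RRP5 (0.34), was called with the batch and centring and 0 otherwise. All other class counts stayed at 0 in every alternative run, leave-one-out included; the mitochondrial class was not run without each strain. Correlations with the module mean moved with the batches. Other assembly factors fell to 0.85 in batch 2. RNA polymerase I went to 0.61 with batch means subtracted, 0.59 in batch 2 and 0.44 in batch 3. Large subunit ribosomal proteins went to 0.19 (batch means subtracted), 0.29, 0.14, 0.26 and 0.078 (batches 1 to 4) and 0.10 (centred), and small subunit ones to 0.21, 0.35, 0.12, 0.39 and 0.0051 (batches 1 to 4) and 0.072 (centred). Stress-induced genes went to -0.50, -0.59, -0.45, -0.42, -0.60 and -0.73 (centred), mitochondrial ribosomal proteins to 0.0099, -0.34, -0.36, -0.14 (batch 4) and -0.066 (centred), and translation factors to 0.37, 0.31, 0.32, 0.49 and 0.44. The causes were not tested. With the longer letters GCGATGAG, PAC stood before 44.4% of members and 4.05% of all promoters. With the letters GAAAAATTT, RRPE stood before 48.6% of members and 6.57% of all promoters. GAAAAATTT does not contain AAAATTTT, so it is another form of the motif and not a stricter one. RRP3, for example, held 0 matches of AAAATTTT and 2 of GAAAAATTT. The median correlation of a member with the others was 0.41 without the 8 libraries of largest spread and 0.34 with 5 batches, both chosen after seeing the data.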
